A study of Mus musculus with 4 samples.

Results

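Low-*Nppa* ventricular cardiomyocytes (CMs) are described here in hearts of control and *Tie2-cko* mouse embryos at E10.5. They were chosen by their own transcripts, counted as unique molecular identifiers (UMIs, 1 per captured transcript). A barcode had to hold at least 1500 genes and at most 10% mitochondrial UMIs. Per 10,000 UMIs of the cell it needed at least 20 UMIs of *Tnnt2* and 10 of *Ttn*, which mark CMs, at least 10 of *Myl2*, which marks the ventricle, and fewer than 10 of *Nppa*. Cells with 2 or more UMIs of *Pecam1*, *Cdh5* and *Ecscr* together per 10,000 (endothelium), or with more than 1 UMI of *Shox2* and *Bmp2* together (sinus venosus and atrioventricular canal) or of *Bmp4* and *Mybpc1* together (outflow tract), were left out. Of 50436 barcodes 30415 met the gene and mitochondrial limits, of which 11072 were CMs and 6490 ventricular CMs. *Nppa* was under its limit in 3595 ventricular CMs, which is 11.8% of the cells kept and 55.4% of ventricular CMs, and the other 2895 are called high-*Nppa* here.

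The series holds 4 libraries made by droplet-based single-cell RNA sequencing of the dissected cardiogenic region, called here by the number that ends each library name. Control libraries 5 and 7 come from embryos labelled Tie2flfl, which carry loxP-flanked alleles of *Tie2* (gene symbol *Tek*) and no Cre. *Tie2-cko* libraries 6 and 8, labelled Nfatcre-Tie2flfl, carry the same alleles with Cre driven from *Nfatc1*, a gene of the endocardium, so the deletion is aimed at endocardial cells (EdCs) and not at the CMs described. Controls and mutants were littermates matched by somites and, per the methods, those of a litter shared a sequencing lane. The methods add that the 2 hearts studied per genotype shared a litter. No label says which libraries shared a litter or a lane, and p-values measure the spread between these 4 libraries. Low-*Nppa* cells numbered 958, 420, 908 and 1309 in libraries 5, 6, 7 and 8. Their median cell held 28754.5, 50444.5, 23517 and 24916 UMIs, and summed over the 4 libraries they held 120195283 UMIs. Between 29 and 62 barcodes were shared by any pair of libraries, 5 to 27 of them among the cells kept.

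At this stage the ventricular wall consists of an outer compact zone, in which CMs divide and which carries the growth of the wall, and inner muscular ridges, the trabeculae, whose CMs divide less and are further along in differentiation. EdCs line the trabeculae and exchange signals with the CMs. Atrial natriuretic peptide, made by *Nppa*, is an established marker of trabecular myocardium, while the Hairy-related repressor *Hey2* and the growth regulator *Mycn* mark the compact zone. TIE2 is a receptor tyrosine kinase of endothelial cells that binds angiopoietins, and *Angpt1*, its ligand gene, is expressed by CMs.

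The deletion and the libraries were examined first. In cells that passed an endothelial gate *Tek* stood at 0.762 (library 5) and 1.17 (library 7) UMIs per 10,000 in controls, against 0.310 (library 6) and 0.237 (library 8) in *Tie2-cko*. Both *Tie2-cko* libraries therefore lay below both controls, as their labels say. Libraries 5 and 6 stood apart from 7 and 8. The first principal component of the summed low-*Nppa* counts held 67.6% of the variance and separated these pairs, and the second held 18.7% and separated the genotypes. No label names a batch. Control library 5 was also the one that held transcripts of both *Xist* (0.422 UMIs per 10,000 in low-*Nppa* cells) and the Y-linked *Ddx3y* (0.138). *Xist* was at most 0.001 in the others, all of which held *Ddx3y*. Library 5 is therefore the one with signs of female as well as male cells, and whether it holds more than 1 embryo was not tested.

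The 4 markers given for these cells did not all behave alike when set against high-*Nppa* CMs. *Hey2* was the one that was higher in low-*Nppa* cells. *Pln*, the inhibitor of the sarcoplasmic reticulum calcium pump, and *Myh7*, the slow myosin heavy chain, were lower in low-*Nppa* cells in 4 of 4 libraries. *Pln* stood at 5.43, 6.22, 5.28 and 6.51 UMIs per 10,000 in low-*Nppa* cells of libraries 5, 6, 7 and 8, and at 6.82, 7.88, 8.07 and 8.57 in high-*Nppa* cells. *Myh7* stood at 27.7, 28.0, 18.9 and 19.5 against 33.7, 31.3, 23.2 and 21.8. *Myl2*, on which the cells were chosen, was at 66.9 ± 4.91 (SD, n = 4 libraries) against 69.2 ± 4.76. *Pln* and *Myh7* thus mark ventricular CMs here and not the low-*Nppa* ones among them, so the cells are named by their *Nppa* level and not as compact myocardium. A level is throughout the number of UMIs of a gene per 10,000 UMIs, over the summed cells of a library. Since *Nppa* divides the 2 kinds of CM and these genes go with it, differences between low-*Nppa* and high-*Nppa* cells are given without a test. A test is given below only for whether a genotype difference was of another size in the 2 kinds.

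Genes of the compact zone were higher and genes of the trabeculae lower in low-*Nppa* cells. All 6 listed compact genes were higher in 4 of 4 libraries, with a median log2 difference of 0.43. Among all 14014 genes compared, 33.2% were higher in low-*Nppa* cells in 4 of 4 libraries and 19.2% lower, and the median was 0.01. An edgeR fit with the library as a block called 38.7% of these genes (18.9% higher, 19.7% lower), which serves only as the background here and to choose the genes named. *Hey2* stood at 0.357, 0.482, 0.374 and 0.470 UMIs per 10,000 in libraries 5, 6, 7 and 8, against 0.281, 0.298, 0.269 and 0.306 in high-*Nppa* cells. The 2 ranges do not overlap. *Mycn* was 0.366 ± 0.042 (SD, n = 4 libraries) against 0.213 ± 0.016, and the cardiac T-box factor *Tbx20* was 0.789 ± 0.113 against 0.650 ± 0.093. The largest compact-zone difference was in *Ccnd2*, which encodes cyclin D2 of the G1 to S transition. It stood at 7.48, 7.55, 8.59 and 6.14 against 4.03, 3.63, 3.32 and 3.20, a 2.09-fold difference.

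Of the 11 listed trabecular genes 10 were lower in low-*Nppa* cells in 4 of 4 libraries, with a median log2 difference of -1.42. *Nppb*, the neighbour of *Nppa* on chromosome 4 and the gene of a second natriuretic peptide, stood at 0.223, 0.160, 0.595 and 0.218 UMIs per 10,000 in libraries 5, 6, 7 and 8, against 1.72, 1.72, 3.06 and 2.33. The smallest high-*Nppa* value was thus well above the largest low-*Nppa* value, which belonged to control library 7. *Bmp10*, a trabecular growth factor, was 0.084 ± 0.016 against 0.443 ± 0.101. *Slit2*, an axon guidance ligand, was 5.74-fold lower and the gap junction gene *Gja5* 2.58-fold lower. *Cited1*, a transcriptional co-regulator, fell from 12.5 ± 0.68 to 4.46 ± 0.42. *Cpne5* was the exception, with a mean log2 difference of 0.15 ± 0.22 (SD, n = 4).

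**Figure D1:**
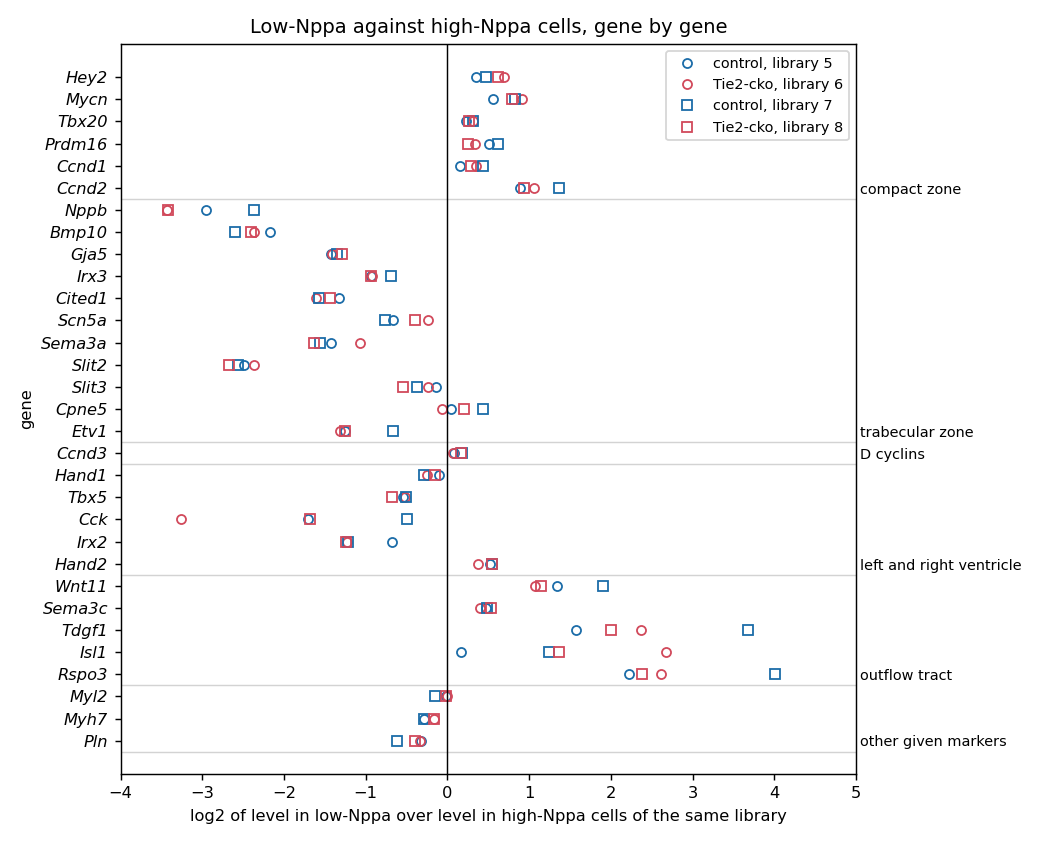
Log2 of the level in low-*Nppa* cells over that in high-*Nppa* cells of the same library (horizontal) for the listed genes (vertical), 1 symbol per library. The 6 compact-zone genes sit to the right of 0, 10 of the 11 trabecular genes to its left, the outflow genes to its right, and *Pln* and *Myh7* to its left.

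Sequences just upstream of 3 genes are shown because these genes follow the 2 zones: *Nppa*, on which the cells were chosen, *Bmp10*, which went with it, and *Hey2*, which went against it. They are the 250 bases before the RefSeq start (build GRCm38.p6), 5′ to 3′ on the gene's own strand. For *Hey2* the 232 bases that lie outside its GENCODE gene model are printed. *Nppb*, at chr4:147985788-147987205, ends 13517 bases before *Nppa* starts. The window of *Nppa* is on the plus strand at chr4:148000472-148000721, that of *Bmp10* on the plus strand at chr6:87428744-87428993 and that of *Hey2* on the minus strand at chr10:30842802-30843033. Capitals mark matches, on either strand, to 5 motifs. The letters AAGTG stand for a motif of NKX2-5. The letters AGATAA stand for one of the GATA factors. The letters AGGTGT stand for one of T-box factors. The letters CATTCC stand for one of TEAD factors, and CACGTG is an E-box.
Nppa: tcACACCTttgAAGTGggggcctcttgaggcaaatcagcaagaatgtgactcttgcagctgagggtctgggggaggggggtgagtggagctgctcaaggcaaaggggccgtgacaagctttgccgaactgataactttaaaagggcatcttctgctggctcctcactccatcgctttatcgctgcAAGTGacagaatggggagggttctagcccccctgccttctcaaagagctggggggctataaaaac
Bmp10: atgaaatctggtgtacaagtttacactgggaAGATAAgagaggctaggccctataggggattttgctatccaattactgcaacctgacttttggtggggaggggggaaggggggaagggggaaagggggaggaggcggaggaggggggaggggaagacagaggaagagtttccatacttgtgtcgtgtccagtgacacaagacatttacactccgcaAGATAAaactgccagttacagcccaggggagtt
Hey2: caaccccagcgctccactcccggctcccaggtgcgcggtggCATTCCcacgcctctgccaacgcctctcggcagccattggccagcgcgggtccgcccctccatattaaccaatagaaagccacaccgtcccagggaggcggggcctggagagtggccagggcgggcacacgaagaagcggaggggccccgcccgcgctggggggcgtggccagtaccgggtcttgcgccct
The *Nppa* window holds 2 matches to AAGTG and 1 to the T-box letters, the *Bmp10* window 2 to AGATAA and the *Hey2* window 1 to CATTCC. Of 27025 such windows, 1 per gene, 40.8% hold AAGTG on either strand, 10.3% AGATAA, 11.99% AGGTGT, 12.6% CATTCC and 6.05% CACGTG. A match is a description of the letters and not a site.

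Across the whole range of *Nppa*, the trabecular genes followed (*Bmp10*, *Nppb* and *Cited1*) were higher in the highest class than in the lowest. *Hey2* and *Mycn* were lower there. Both *Hey2* and *Nppb* took their largest step at 100 or more UMIs of *Nppa* in each library. In control library 5 *Hey2* stood at 0.343 UMIs per 10,000 in ventricular CMs with under 1 UMI of *Nppa* per 10,000, at 0.348 in those with 5 to 10, at 0.347 in those with 20 to 50 and at 0.0871 in those with 100 or more. In all 4 libraries *Hey2* was lowest at 100 or more, between 0.0871 and 0.133, and in libraries 6, 7 and 8 it was already lower at 20 to 50, at 0.379, 0.315 and 0.360, than under 1, at 0.521, 0.363 and 0.452. *Mycn* declined over the range, from between 0.345 and 0.477 in the lowest class to between 0.0513 and 0.119 in the highest. *Bmp10* went the other way, from between 0.0235 and 0.0479 to between 0.750 and 1.16. *Cited1* already differed among the low-*Nppa* cells, from between 2.80 and 3.89 under 1 UMI of *Nppa* to between 4.47 and 7.03 at 5 to 10, and *Pln* from between 3.85 and 5.09 to between 6.35 and 8.70.

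The limit of 10 UMIs of *Nppa* lay within a range in which *Hey2* had no common step. Cells just inside it, with 8 to 10 UMIs of *Nppa* per 10,000, held *Hey2* at 0.279, 0.456, 0.443 and 0.414 UMIs per 10,000 in libraries 5, 6, 7 and 8. Cells just outside it, with 10 to 12, held 0.386, 0.341, 0.371 and 0.447, higher than inside in libraries 5 and 8 and lower in 6 and 7. These classes hold 24 to 75 cells per library. Between 3.85% and 8.57% of low-*Nppa* cells in a library held no *Nppa* UMI, and the median cell held 1.5 to 2.21 per 10,000.

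**Figure D2:**
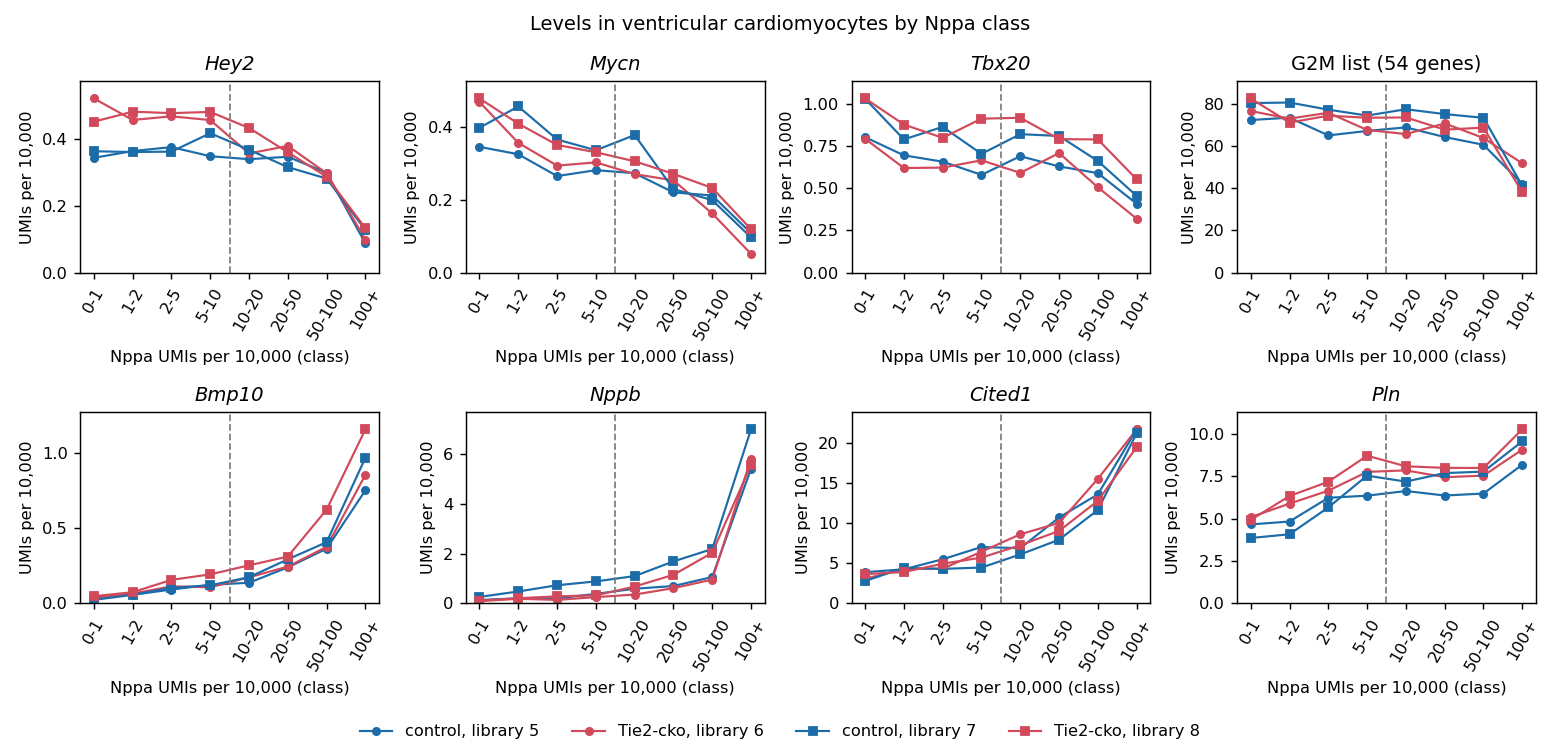
Level of 7 genes and of the G2M list (vertical, UMIs per 10,000) in ventricular CMs divided by their *Nppa* level (horizontal, 8 classes), 1 line per library, with the limit of the low-*Nppa* cells dashed. *Hey2* and the G2M list have their lowest values at 100 or more UMIs of *Nppa*, while *Bmp10*, *Nppb* and *Cited1* rise and *Mycn* declines across the classes.

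Cell cycle genes were at higher levels in low-*Nppa* than in high-*Nppa* CMs. They were followed by lists of 43 S phase genes (DNA replication) and 54 G2M genes (mitosis). All 43 S genes and 51 of the 54 G2M genes were higher in low-*Nppa* cells in 4 of 4 libraries, against the 33.2% of all genes given above. The S list summed to 24.7, 26.0, 28.4 and 26.3 UMIs per 10,000 in libraries 5, 6, 7 and 8, against 20.9, 20.8, 22.2 and 22.0 in high-*Nppa* cells. The G2M list summed to 69.8, 73.7, 78.2 and 76.2, against 60.1, 64.3, 66.5 and 62.0. Neither pair of ranges overlaps, and the ratios were 1.23 ± 0.048 and 1.18 ± 0.036 (SD, n = 4). *Mki67*, the proliferation antigen Ki67, was 1.27 ± 0.035 against 1.03 ± 0.045, and *Top2a*, topoisomerase II, was 2.94 ± 0.36 against 2.37 ± 0.26.

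Cells were also compared one by one, after thinning each to 10,000 UMIs, which left out 36, 45, 41 and 38 low-*Nppa* cells and 28, 22, 18 and 21 high-*Nppa* cells as too shallow. Nearly all low-*Nppa* cells, 98.3% to 99.4%, held 10 or more G2M UMIs, so this limit did not divide them. A limit of 100 UMIs, chosen after the values were seen, was passed by 18.4%, 24.0%, 27.5% and 26.2% of low-*Nppa* cells and by 12.97%, 17.1%, 20.1% and 18.2% of high-*Nppa* cells. The low-*Nppa* share was the higher in each library, and without thinning it was 70.5%, 78.6%, 64.8% and 61.7% against 68.3%, 77.9%, 61.8% and 57.1%. This share is a range of a continuous score, and 46 to 130 low-*Nppa* cells per library lay within 10 UMIs of the limit. As *Nppa* rose, the G2M list went from 72.4, 76.7, 80.4 and 82.6 UMIs per 10,000 under 1 UMI of *Nppa* to 60.7, 63.9, 73.4 and 68.8 at 50 to 100, and to 42.0, 51.8, 41.2 and 38.1 above.

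**Figure D3:**
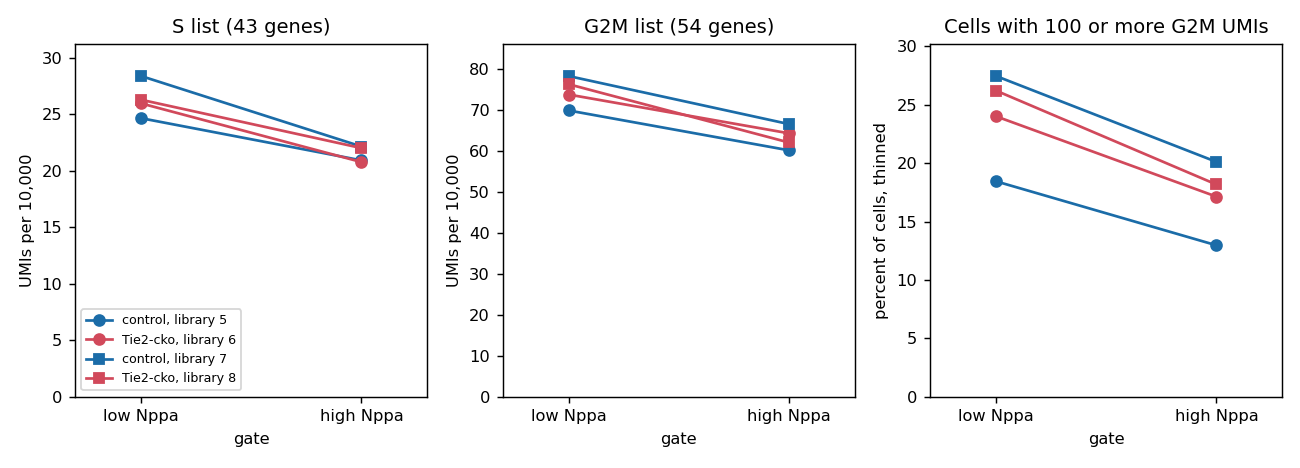
Summed level of the S list and of the G2M list (UMIs per 10,000) and share of cells with 100 or more G2M UMIs after thinning (percent), in low-*Nppa* and high-*Nppa* cells, 1 line per library. Each line falls from low to high *Nppa*, and the control and *Tie2-cko* lines are mixed.

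Regulators of the cycle were looked at next. The 3 D cyclins were all higher in low-*Nppa* cells in 4 of 4 libraries, *Ccnd1* at 0.619 ± 0.034 against 0.50 ± 0.026 UMIs per 10,000. Of 12 listed brakes of the cycle 4 were higher and 3 lower in 4 of 4 libraries, shares near those of all genes (33.2% and 19.2%), with a median log2 difference of 0.10. *Cdkn1c*, which encodes the inhibitor p57, was the most abundant of them, at 20.4 in low-*Nppa* cells and 21.4 in high-*Nppa* cells on average. *Cdkn1b* (p27) was higher in low-*Nppa* cells by a log2 difference of 0.39 ± 0.10. Among low-*Nppa* cells, *Cdkn1c* and *Pln* were lower in cells with 50 or more thinned G2M UMIs than in the rest, in each library. *Pln* stood at 4.80, 5.61, 4.92 and 5.66 in the former and at 6.72, 7.42, 6.03 and 8.05 in the latter, while *Hey2* lay between 0.355 and 0.475 in the former and between 0.352 and 0.492 in the latter.

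Genes of contraction, calcium handling and fatty acid use were mostly lower in low-*Nppa* cells, and glycolysis genes were mixed. Of 20 sarcomere genes 18 were lower in 4 of 4 libraries, with a median log2 difference of -0.28. The cardiac troponin I gene *Tnni3* was 11.6 ± 0.62 against 17.6 ± 0.50 UMIs per 10,000. Of 9 calcium handling genes 6 were lower, among them *Casq2*, which encodes the calcium buffer calsequestrin, 2.90-fold, and *Atp2a2*, the pump that *Pln* inhibits, by a log2 difference of -0.28 ± 0.07. Of 12 genes of fatty acid use 10 were lower, with a median of -0.35, while 7 of 16 glycolysis genes were higher and 5 lower. Of all genes 33.2% were higher and 19.2% lower, and the difference between the 2 fuel lists was not tested.

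The genes with the largest differences outside the gate, among those at 1 UMI per 10,000 or more in the higher kind, were of several kinds. Higher in low-*Nppa* cells were *Igfbp5*, an insulin-like growth factor binding protein (1.28, 1.19, 1.86 and 1.61 against 0.716, 0.589, 0.628 and 0.675), *Ccnd2*, and *Id2*, an inhibitor of differentiation (1.81 ± 0.51 against 0.869 ± 0.19). These were followed by the replication-linked histone genes *Hist1h1b*, *Hist1h3c* and *Hist1h1e* with *Ptma*, *Sinhcaf*, *Fabp5* and *Bambi*, the last a pseudoreceptor that limits BMP and TGF-beta signals. Lower, after *Nppb*, were *Itga6*, the laminin receptor subunit alpha 6 (2.90-fold), *Cited1*, the imprinted gene *Mest* (6.94 ± 0.65 against 16.8 ± 1.58) and *Igfbpl1*. *Ankrd1*, a sarcomeric stress-response gene, *Myl1*, *Ehd4*, *Cav3* and the triadin gene *Trdn* completed the 10. *Ankrd1* differed least in control library 7, by a log2 difference of -0.16, and most in *Tie2-cko* library 6, by -1.55.

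Genes that mark regions of the heart also differed between low-*Nppa* and high-*Nppa* cells. *Tbx5*, *Irx2*, *Hand1* and *Cck*, with *Cited1*, were lower in low-*Nppa* cells in 4 of 4 libraries, and *Hand2* was higher, which accounts for the 6 genes of the left and right ventricle list. *Hand1* did not rise steadily with *Nppa*. In libraries 5, 6, 7 and 8 it stood at 0.958, 0.926, 1.05 and 1.19 under 1 UMI of *Nppa* per 10,000. At 5 to 10 it stood at 0.639, 0.638, 0.690 and 0.767, and at 100 or more at 0.783, 0.934, 1.02 and 1.06. Of 15 cardiac transcription factors 9 were higher and 5 lower in 4 of 4 libraries, of 19 growth signals and receptors 9 and 2, and of 20 matrix genes 4 and 7. Higher and lower were 2 and 1 of 10 Notch genes, 3 and 0 of 9 hypoxia genes, 4 and 0 of 8 immediate early genes and 4 and 1 of 6 genes of the sinus venosus and atrioventricular canal. Set against the 33.2% of all genes that were higher and the 19.2% that were lower, the Notch and hypoxia counts do not stand out. The other lists are small too, and no count was tested against these shares. *Isl1* and *Rspo3* are in both the sinus venosus and atrioventricular canal list and the outflow tract list. The *Wnt* pathway factor *Lef1* was 3.24-fold higher in low-*Nppa* cells. The 5 listed outflow tract genes were all higher in 4 of 4 libraries although cells with more than 1 UMI of *Bmp4* and *Mybpc1* together had been left out. Their sum was small, at 0.438, 0.281, 0.890 and 0.538 UMIs per 10,000 against 0.172, 0.121, 0.171 and 0.192, and *Rspo3*, a Wnt agonist, was more abundant in it than the other genes in libraries 5, 7 and 8. *Rspo3* alone stood at 0.238, 0.0912, 0.635 and 0.303 in low-*Nppa* cells, highest in control library 7. Other CMs, outside the ventricular gate, held the outflow list at 2.97 to 5.03. The part of outflow cells in the differences above was not tested.

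Markers of other cell types were at low levels, with 1 exception. The 9 endocardial genes summed to between 0.342 and 0.466 UMIs per 10,000 in low-*Nppa* cells and to between 14.4 and 16.6 in endothelial cells. *Egfl7* was the most abundant of them, at 0.219 to 0.352, and *Cldn5* was at most 0.002. The 5 atrial genes summed to 0.916 to 1.1, mostly *Angpt1*, and *Sln* was at most 0.006. The 5 epicardial genes summed to at most 0.194, the 7 mesenchymal genes to at most 0.348, the 4 macrophage and platelet genes to at most 0.074 and the 7 epithelial and hepatic genes to between 0.588 and 1.46, mostly *Krt8* and *Krt18*. The exception was the red blood cell list, led by the embryonic globin *Hbb-y*, which summed to 99.7, 25.5, 26.2 and 6.70 in libraries 5, 6, 7 and 8. The 4 most variable genes among low-*Nppa* cells, by variance over mean, were the globins *Hbb-y*, *Hba-x*, *Hba-a1* and *Hbb-bh1*, followed by *Malat1*, *Gm42418* and the atrial-type light chain *Myl7*.

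Whether the endocardial deletion was accompanied by differences in these CMs was asked per library. The share of ventricular CMs that were low in *Nppa* was 53.6% in library 5 and 49.2% in library 7, the controls, against 57.7% in library 6 and 61.5% in library 8. The groups do not overlap and differed by 8.22 percentage points, 51.4 ± 3.11 against 59.6 ± 2.70 (SD, n = 2). With 4 libraries the smallest p of the two-sided exact permutation test is 0.33, which is also the p obtained, so the difference cannot pass a threshold. The share is set by the *Nppa* limit itself, so it is a description of the gate. A lower *Nppa* level per cell and a larger part of low-*Nppa* cells cannot be told apart in it. As a share of all CMs the cells made up 31.3% and 29.5% in controls and 34.8% and 35.1% in *Tie2-cko*. As a share of all cells kept the groups overlapped, at 10.6% and 11.4% in controls and 9.40% and 14.6% in *Tie2-cko* (exact permutation p = 1, n = 2 each).

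The summed cycling lists did not separate the genotypes. The G2M list of low-*Nppa* cells was 74.0 ± 5.94 UMIs per 10,000 in controls and 75.0 ± 1.78 in *Tie2-cko* (exact permutation p = 1, n = 2 each), and the S list was 26.5 ± 2.64 and 26.1 ± 0.23 (exact permutation p = 1, n = 2 each). Both controls, one the lowest and the other the highest library of the 4, enclosed both *Tie2-cko* libraries in either list. The share of cells with 100 or more G2M UMIs was 22.9% ± 6.37 in controls and 25.1% ± 1.56 in *Tie2-cko*, with control library 5 the lowest and control library 7 the highest. At a limit of 50 UMIs, also chosen after the values were seen, the direction was the opposite, at 60.6% and 63.1% in controls and 60.5% and 56.4% in *Tie2-cko* (exact permutation p = 0.33, n = 2 each). Libraries 5 and 6 were nearly equal there, and without thinning the groups overlapped, at 85.2% and 83.7% against 87.6% and 80.7%.

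Across genes, counts summed over the low-*Nppa* cells of a library were tested with edgeR's quasi-likelihood test and adjusted by the Benjamini-Hochberg method. No gene of 13566 passed an adjusted p of 0.05 (0.0% called), while 107 (0.789%) had an unadjusted p under 0.05, and DESeq2 called 2 genes, *Hbb-bs* and *Gm21887*. Without library 5, 6, 7 or 8 in turn edgeR called 14, 14, 18 and 2 genes. In 13.3% of all genes both *Tie2-cko* libraries lay above both controls and in 7.39% below them. When the pairs 5 with 6 and 7 with 8, which no label gives, entered the fit as a block, 166 genes passed (1.22%), 42 higher (0.31%) and 124 lower (0.914%) in *Tie2-cko*. The pairing was taken from earlier results on these libraries, so calls made with it stand beside the unblocked ones and not in their place. None of the 97 S and G2M genes passed in either fit, and none had an unadjusted p under 0.05.

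*Hey2* was the compact-zone gene that differed most by genotype. Its level in low-*Nppa* cells was 0.357 and 0.374 UMIs per 10,000 in controls and 0.482 and 0.470 in *Tie2-cko*, so the groups do not overlap. The log2 difference was 0.36 with a standard error (SE) of 0.11, which did not pass (edgeR, unadjusted p = 0.0163, adjusted p = 1.00) and passed with the block (adjusted p = 0.000906). The log2 ratio was 0.43 between libraries 6 and 5 and 0.33 between 8 and 7. In high-*Nppa* cells it stood at 0.281 and 0.269 in controls and 0.298 and 0.306 in *Tie2-cko*, a log2 difference of 0.12 with an SE of 0.12. *Hey2* did not pass the test, given below, of whether the genotype difference was of another size there. Of the 6 compact-zone genes 1 (*Hey2*) lay above and 1 (*Prdm16*) below the controls in both *Tie2-cko* libraries, against 13.3% and 7.39% of all genes. *Prdm16* stood at 0.0792 and 0.0858 in controls and 0.0708 and 0.0771 in *Tie2-cko*. The median log2 difference of the 6 genes was -0.02, against 0.01 for all genes. *Ccnd2*, for one, stood at 7.48 and 8.59 in controls and 7.55 and 6.14 in *Tie2-cko*, which overlap.

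Of the 11 trabecular genes 2 (*Gja5* and *Sema3a*) lay above both controls in both *Tie2-cko* libraries and 1 (*Nppb*) below, shares near the 13.3% and 7.39% of all genes, with a median log2 difference of 0.01. *Nppb* stood at 0.223 and 0.595 in controls and 0.160 and 0.218 in *Tie2-cko*, a log2 difference of -1.12 with an SE of 0.42 (edgeR, unadjusted p = 0.0356, adjusted p = 1.00), and it passed with the block. The log2 ratio was -0.48 between libraries 6 and 5 and -1.45 between 8 and 7, control library 7 being the highest. After thinning, *Nppb* was found in 14.4% and 23.4% of low-*Nppa* cells in controls and 10.4% and 12.5% in *Tie2-cko* (26.9%, 38.3%, 26.7% and 24.1% without thinning), against 2.30%, 7.77%, 0.93% and 5.69% of endothelial cells in libraries 5, 7, 6 and 8, whose median depth was 15417, 12251, 27720.5 and 11840 UMIs. *Bmp10*, *Gja5*, *Cited1* and the other 7 listed trabecular genes passed in neither fit, which does not show that they were equal.

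*Ankrd1*, *Tagln* and *Atf3*, set together after their values were seen, were each highest in control library 7 and had lower levels in libraries 6 and 8 than in the controls. *Ankrd1* stood at 2.90 and 5.24 UMIs per 10,000 in controls and 1.66 and 2.34 in *Tie2-cko*, a log2 difference of -1.04 with an SE of 0.29 that did not pass (edgeR, unadjusted p = 0.0102, adjusted p = 1.00). *Tagln*, a smooth muscle actin-binding gene of early CMs, stood at 7.95 and 13.6 against 6.18 and 6.70, and *Atf3*, a stress-induced transcription factor, at 0.0834 and 0.353 against 0.0628 and 0.0668. All 3 have groups that do not overlap and passed with the block. Of 8 immediate early genes 5 were called lower with the block (0.914% of all genes) and none without it (1 had an unadjusted p under 0.05), and their sum was 2.52 and 4.48 in controls against 2.78 and 2.51 in *Tie2-cko*, where library 7 alone stood apart. The outflow tract list was also highest in library 7, at 0.438 and 0.890 in controls and 0.281 and 0.538 in *Tie2-cko*, and *Rspo3* was called lower with the block. The part of outflow cells in these differences was not tested. Of 20 matrix genes tested 5 were called lower with the block, against the same 0.914%, namely *Itga1*, *Adamts1*, *Has2*, *Timp3* and *Hapln1*, of which *Adamts1* alone had groups that do not overlap. *Timp3*, an inhibitor of ADAMTS proteases, stood at 0.124 and 0.251 in controls and 0.107 and 0.177 in *Tie2-cko*. The matrix proteoglycan gene *Vcan* stood at 3.04 and 4.53 against 3.37 and 4.13, which overlap.

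The genes with the smallest p in each direction did not pass in the main edgeR fit without the block. Some passed under other settings, as *Hbb-bs* and *Gm21887* did in DESeq2. The lower ones began with globins. They were *Hbb-bs*, *Tek*, *Hbb-bt*, *Gm21887*, *Krt19*, *Pklr*, *Lmod1*, *Eppk1*, *Vamp5* and *Gadd45g*. *Tek* was near 0 in these CMs, with 29 and 28 UMIs in controls and 2 and 4 in *Tie2-cko*. *Lmod1*, which nucleates actin filaments, stood at 0.158 and 0.208 UMIs per 10,000 in controls and 0.115 and 0.114 in *Tie2-cko*, and *Krt19* at 0.284 and 0.291 against 0.205 and 0.20. The red blood cell list summed to 99.7 and 26.2 in controls and 25.5 and 6.70 in *Tie2-cko*. Its 6 genes were all called lower with the block, against 0.914% of all genes. It moved with the genotype alongside the genes above, and its part in them was not tested. Leaving out the 26, 4, 3 and 3 low-*Nppa* cells with 100 or more UMIs of this list per 10,000 gave a log2 difference of -0.70 for *Lmod1* and 0.35 for *Hey2*, but it did not remove the globin difference, which was -1.97 for *Hbb-bs* and -1.93 for *Hbb-bt* after it and -2.79 and -2.72 before.

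The higher ones were *Myo5c*, *Gm14325*, *Gm20707*, *Hey2*, *Ccl2*, *Adhfe1*, *Tmtc1*, *Mgarp*, *Lrtm1* and *Igfbp3*. *Hey2* was the most abundant of them and *Mgarp*, a mitochondrial protein gene, the next, at 0.171 and 0.159 UMIs per 10,000 in controls and 0.217 and 0.220 in *Tie2-cko*. *Ccl2*, a chemokine gene, owed its difference largely to library 6, with 110 UMIs against 8, 4 and 17 in libraries 5, 7 and 8. Library 6 also held more of the platelet factor gene *Pf4*, at 0.0652 against 0.0146, 0.00613 and 0.00238. Of 9 genes of the hypoxia response 4 lay above both controls in both *Tie2-cko* libraries, against 13.3% of all genes, and *Bnip3*, a mitophagy receptor, was the 1 called higher with the block (0.31% of all genes). *Bnip3* stood at 1.67 and 2.04 in controls and 2.12 and 2.64 in *Tie2-cko*, a log2 difference of 0.34 with an SE of 0.16.

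**Figure D4:**
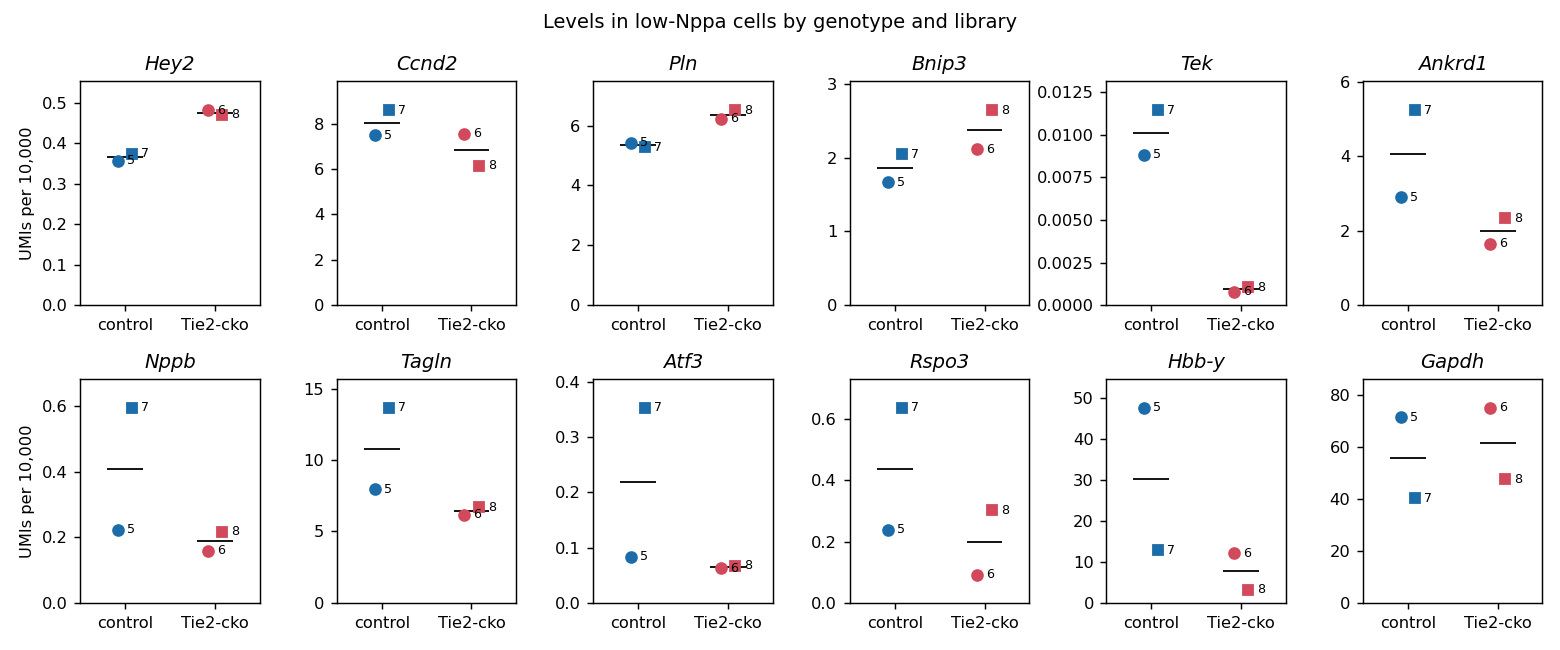
Level of 12 genes (vertical, UMIs per 10,000, from 0) in low-*Nppa* cells of the 4 libraries by genotype (horizontal), with library numbers beside the points and group means as bars. *Hey2* is higher in both *Tie2-cko* libraries, *Ankrd1*, *Nppb*, *Tagln* and *Atf3* are highest in control library 7, and *Gapdh* separates libraries 5 and 6 from 7 and 8.

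Of 20 sarcomere genes *Tagln* was the one called with the block, where 0.914% of all genes were called lower. In both *Tie2-cko* libraries 2 lay above the controls (13.3% of all genes) and 5 below (7.39% of all genes). The median log2 difference was -0.06. *Pln* stood at 5.43 and 5.28 UMIs per 10,000 in controls and 6.22 and 6.51 in *Tie2-cko*, with a log2 difference of 0.23 and an SE of 0.12 that did not pass in either fit. *Angpt1*, the TIE2 ligand gene, stood at 0.582 and 0.735 in controls and 0.736 and 0.866 in *Tie2-cko*. Libraries 7 and 6 were almost level, and the gene passed with the block alone (edgeR, adjusted p = 0.0485). *Ccn1* and *Ccn2*, matrix-associated growth signals, and *Btg2*, an antiproliferative gene, were called lower with the block, each with control library 7 highest and the groups overlapping. *Cck*, which marks part of the ventricle, stood at 0.120 and 0.136 in controls and 0.0628 and 0.0932 in *Tie2-cko*, and was called lower with the block. None of the 15 cardiac transcription factors, 16 glycolysis genes, 12 genes of fatty acid use or 10 Notch genes tested was called in either fit. None had an unadjusted p under 0.05. Of all genes 0.0% were called without the block and 1.22% with it, so the absence of calls does not set these lists apart. The glycolysis list followed the library pairs, at 190 and 203 UMIs per 10,000 in libraries 5 and 6 and 125 and 143 in 7 and 8. Within each pair the *Tie2-cko* library was the higher. The 16 genes had genotype log2 differences from 0.02 to 0.23, with a median of 0.11, against 0.01 for all genes. Of the 16, 1 lay above both controls in both *Tie2-cko* libraries, against 13.3% of all genes.

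Whether a genotype difference was of another size in low-*Nppa* than in high-*Nppa* CMs was tested directly, by the term for gate and genotype with the library as a block. Of 14014 genes 6 passed (0.0428%), namely *Nppb*, *Nrgn*, *Afp*, *Ankrd1*, *Ptn* and *Lmod1*, and 18, 41, 12 and 57 passed without library 5, 6, 7 or 8. *Ankrd1* was lower in *Tie2-cko* by 1.04 on the log2 scale in low-*Nppa* cells, as above, while in high-*Nppa* cells it stood at 5.15 and 5.85 UMIs per 10,000 in controls and 4.86 and 4.93 in *Tie2-cko*. The difference of the differences was -0.83 with an SE of 0.13 (edgeR, adjusted p = 0.0104). For *Lmod1* it was -0.74 with an SE of 0.13 (edgeR, adjusted p = 0.0341), the high-*Nppa* levels being 0.181 and 0.162 against 0.190 and 0.174. For *Nppb* it was -0.81 with an SE of 0.11 (edgeR, adjusted p = 0.00292). Without control library 7 the terms of *Ankrd1* and *Lmod1* no longer passed, at -0.51 and -0.50, and that of *Nppb* passed at -0.50. With low-*Nppa* cells taken under 5 and high-*Nppa* cells from 20 UMIs of *Nppa* per 10,000, no gene passed in edgeR and 521 had an unadjusted p under 0.05, while the terms were -0.80 for *Nppb*, -0.88 for *Ankrd1* and -0.81 for *Lmod1*, close to those above.

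**Figure D5:**
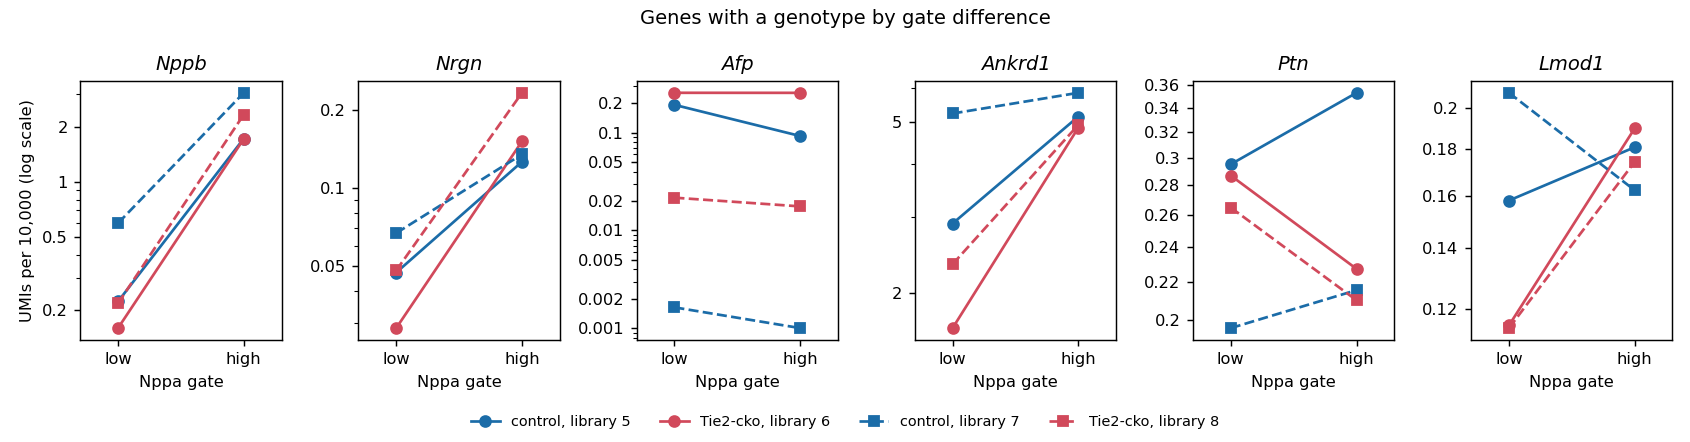
Level of the 6 genes past the threshold of the gate by genotype term (vertical, UMIs per 10,000, log scale) in low-*Nppa* and high-*Nppa* cells (horizontal), 1 line per library. For *Ankrd1* and *Lmod1* the *Tie2-cko* lines start below the control lines in low-*Nppa* cells, and the 4 libraries lie close together in high-*Nppa* cells.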

How the data were processed

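Matrices of UMI counts per gene and barcode were deposited by the authors, 1 filtered matrix per library. Their headers and processing notes name Cell Ranger 6.1.2 and mm10, while the written methods name an earlier version. The 4 libraries held 18488, 8877, 11172 and 11899 barcodes (5, 6, 7 and 8) and 32285 genes. Cells were selected as the opening of the results states, and their counts were summed per library, giving 32847291, 25013179, 24470132 and 37864681 UMIs.

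Sums were tested with edgeR 4.0.16 (R 4.3.3) by the quasi-likelihood test with TMM scaling, filterByExpr and Benjamini-Hochberg adjustment over all genes tested, threshold 0.05. The genotype fit had no covariate, and comparisons of low with high *Nppa* had the library as a block. DESeq2 1.42.0 was an alternative. Single values were compared by a two-sided exact permutation test over the 4 libraries. Cells were thinned to 10,000 UMIs for shares. A share and a level carry counting error as well as the spread between libraries. In these summed values less RNA of a gene per cell and fewer cells with it cannot be told apart. Doublets were scored by Scrublet (scanpy 1.11.5) and those with the highest scores removed only as an alternative, which dropped 75, 19, 60 and 69 low-*Nppa* cells. The scripts were tested on simulated data.

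Genes named were the given markers and gate genes, up to 4 members of each gene list with the smallest p, for genotype the 10 with the smallest p in each direction among genes in which the genotypes did not overlap, and for low against high *Nppa* the 10 largest differences in each direction among genes past the threshold in 4 of 4 libraries at 1 or more UMI per 10,000. Other genes were named after their values were seen. The cells and lists were chosen with earlier results of these data known.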

Additional observations from a re-analysis of the deposited data

Results flagged for a closer look

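In 6 genes the genotype difference in low-*Nppa* CMs was not the same as in high-*Nppa* CMs by the test of that difference (edgeR, Benjamini-Hochberg). For *Nppb*, *Ankrd1* and *Lmod1*, described above, it was -0.81, -0.83 and -0.74 on the log2 scale. The limit given there for *Nppb*, which goes with *Nppa*, holds here too.

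*Nrgn*, which encodes the calmodulin-binding protein neurogranin, differed by -1.11 (edgeR, adjusted p = 0.00338). In low-*Nppa* cells it stood at 0.0472 and 0.067 UMIs per 10,000 in controls and 0.0288 and 0.0481 in *Tie2-cko*, and in high-*Nppa* cells at 0.126 and 0.135 against 0.152 and 0.234. The groups overlap in the former and do not in the latter.

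*Ptn*, a heparin-binding growth factor gene, differed by 0.53 (edgeR, adjusted p = 0.0104). It stood at 0.295 and 0.196 in controls and 0.287 and 0.265 in *Tie2-cko* in low-*Nppa* cells, and at 0.353 and 0.215 against 0.227 and 0.210 in high-*Nppa* cells, where control library 5 alone stood apart. Without control library 5 the term was 0.49 and did not pass (edgeR, adjusted p = 0.256).

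*Afp*, a hepatic gene, differed by -1.05 (edgeR, adjusted p = 0.00512). It followed the library pairs, at 0.193 and 0.256 in low-*Nppa* cells of libraries 5 and 6 and 0.00163 and 0.0217 in 7 and 8, with 0.0926, 0.256, 0.0010 and 0.0176 in high-*Nppa* cells. The term did not pass without library 5, at -0.62, or without library 6, at -0.78 (edgeR, adjusted p = 0.975 and 0.808).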

How the results depend on the processing

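The genotypes share no replicate number in the labels, so the fit with library pairs as a block rests on earlier results of these data. The methods match controls and mutants within a litter and lane, and add that the 2 hearts studied per genotype shared a litter. They do not name the libraries. The cause of the changes below was not tested. Genes called by genotype numbered 0, 43 without a filter on low counts, 2 to 18 without one library, 2 by DESeq2, and 166 with the library pairs as a block. The background count of genes called between low and high *Nppa*, which is no test of the cells, was 5421, 1052 without the library block and 3014 by DESeq2. Genes past the gate by genotype term numbered 6, 54 without the filter, 12 to 57 without one library, and 0 for *Nppa* under 5 against 20 or more, where *Afp* reversed to 0.98 and the other 5 terms kept their direction, at -0.80 (*Nppb*), -1.04 (*Nrgn*), -0.88 (*Ankrd1*), 0.57 (*Ptn*) and -0.81 (*Lmod1*). The share of low-*Nppa* cells with 10 or more G2M UMIs was lower by 0.579 percentage points in *Tie2-cko* (-0.579), and the difference was 0.0149 at 5 UMIs, -3.39 at 50 and 2.16 at 100, and -1.05 (without library 5) to -0.108 (without library 7) without one library. For the S list it was 0.280, and -0.452 at 5 UMIs, -3.39 at 20 and -1.06 to 1.62 without one library (-1.06 without library 5, -0.889 without library 6). Limits of 50 and 100 UMIs and leaving out cells rich in globins were chosen after seeing the data. Without one library, the library left alone in its genotype was assumed to vary like the other group. The higher share of low-*Nppa* cells among ventricular CMs in *Tie2-cko* kept its direction under all alternatives run, at 6.02 to 10.4 points. It remains a description of the gate, and the alternatives with *Nppa* under 5 or under 20 only move the limit that defines it. For named genes, 467 of the values under alternatives kept their direction and side of the threshold, 34 newly passed, 13 no longer passed and 1 reversed. With 2 libraries per genotype, and the shallowest of the summed counts in library 7, differences within the spread of the controls could not be seen.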

Other observations

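Glycolysis genes of low-*Nppa* CMs followed the library pairs more than the genotype. *Gapdh* stood at 71.5 and 75.1 UMIs per 10,000 in libraries 5 and 6 and 40.3 and 47.8 in libraries 7 and 8, and *Eno1* at 11.5 and 12.2 against 3.46 and 3.35. *Eno1b*, a near-identical copy of *Eno1*, went the other way, at 0.373 and 0.579 against 2.88 and 2.71, so that the counts of these copies are uncertain. The ventricular transcription factor gene *Irx4* divided the same way, at 0.554 and 0.570 against 0.33 and 0.355. Each gene had 1 control and 1 *Tie2-cko* library on either side.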
